A study of Rattus norvegicus with 9 samples.

Results

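The HOX genes encode homeodomain transcription factors that lie in 4 clusters, HOXA to HOXD. They were taken from arrays of rat skin as all genes whose deposited symbol is Hox followed by a cluster letter and a paralog number. This gave 32 of the 19103 genes tested, 8 in HOXA, 9 in HOXB, 8 in HOXC and 7 in HOXD. For a gene with more than 1 probe set, the set with the highest mean log2 intensity over the 9 arrays stood for it. Of the 39 HOX genes in a rat RefSeq table, Hoxa3, Hoxa7, Hoxa11, Hoxb2, Hoxc11, Hoxd8 and Hoxd11 were not analysed here.

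The 9 Sprague Dawley rats fell into 2 groups. Carrageenan (CGN), which is extracted from seaweed and provokes acute inflammation, was given to 4 of them, and the 5 others, titled non-treated, are called control here. CGN was given at 30 mg/kg, paw swelling and pressure pain were tested 3 h later, and skin was taken at 4 h. For controls the labels give no dose, no hour of testing and no hour of harvest, so effects of CGN cannot be told apart from those of injection, handling or paw tests. The labels used here give no age or sex, and neither the site of injection nor the body site of the skin in either group. Each array stood for 1 animal, so p-values measure the spread between these animals.

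Along the body axis of vertebrate embryos, genes at the low-numbered (anterior) end of a HOX cluster switch on earlier and nearer the head, and those at the high-numbered (posterior) end later and nearer the tail and the limb tips. Adult skin keeps part of this code. In human skin, fibroblasts from different body sites differ in the HOX genes that they express, and HOXC13 acts in hair and nail. HOX proteins bind DNA together with PBX and MEIS cofactors, and Polycomb and trithorax proteins hold the clusters silent or active.

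Gene levels below are RMA intensities on a linear scale as the authors deposited them. A group mean is a geometric mean, its SD is on the log2 scale, and a log2 change is CGN minus control ± standard error. Adjusted p-values come from limma with Benjamini-Hochberg adjustment over all 19103 genes, and a gene is said to rise or fall where this is under 0.05. The epidermal keratins checked the tissue: Krt14 read 16910 to 21750 in CGN and 19750 to 21438 in control, and Krt10 read 24486 to 26790 in CGN and 24155 to 27404 in control. They show epidermis in both groups and not that its amount was equal. Of 12 keratinocyte markers measured, 3 fell in CGN (Col17a1, Krt2 and Tp63) and 0 rose. CGN replicate 1 stood apart from the other CGN samples in several values below. The HOX calls and the HOX correlations are given with and without it, and the changes of single genes and the list means with it only.

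Hoxa5, which patterns the neck and upper trunk in mouse embryos, was the only HOX gene in the top quartile of all genes in control skin. Its control mean was 393 (SD of log2 0.41, n = 5), at percentile 82.8 of all genes. Probe sets differ in how well they bind, so an order of genes by intensity describes these probe sets and not amounts of RNA. The files used here hold no detection calls. As a guide to dim readings, 30 genes restricted to other tissues had control means with a median of 11.5, a 90th percentile of 24.4 and a highest value of 61.3. The highest was Cyp2c11, the only 1 of the 30 that fell in CGN by limma (adjusted p = 0.0359), so it may not be a dim reading. The second highest read 45.7. In control, 9 of the 32 HOX genes lay above the median of all genes, 44.8. Of the 32, 16 lay above the 90th percentile of this dim guide and 8 above its highest value. The 16 others could not be told apart from such dim readings, which does not show that they were absent.

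The brighter readings, those above that 90th percentile, came from every cluster and mostly from central and posterior paralogs. In HOXA they were Hoxa5, Hoxa9, Hoxa10 and Hoxa13, and in HOXB they were Hoxb5, Hoxb6, Hoxb7 and Hoxb9. In HOXC they were Hoxc8, Hoxc9, Hoxc10 and Hoxc13, and in HOXD they were Hoxd3, Hoxd4, Hoxd9 and Hoxd10. Hoxc10, Hoxd4, Hoxd9 and Hoxd10 also had further probe sets, whose control means all lay below that percentile. Hoxd3 and Hoxd4, the only anterior genes here, lay below the highest value of the other-tissue genes. So did the central and posterior genes Hoxa9, Hoxb5, Hoxb6, Hoxb9, Hoxc8 and Hoxc10. Among these only Hoxb5, at 54.5, lay above the second highest, 45.7. By position, 2 of 10 anterior genes (paralogs 1 to 4), 5 of 9 central genes (5 to 8) and 9 of 13 posterior genes (9 to 13) were among the brighter readings. The posterior genes that were not were Hoxb13, Hoxc12, Hoxd12 and Hoxd13. Hoxb13, a gene of the tail end of the embryo, read 9.19 in CGN and 9.10 in control, while Hoxa13, which is needed for digits in mouse limbs, read 50.1 in CGN and 120.9 in control.

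**Figure D1:**
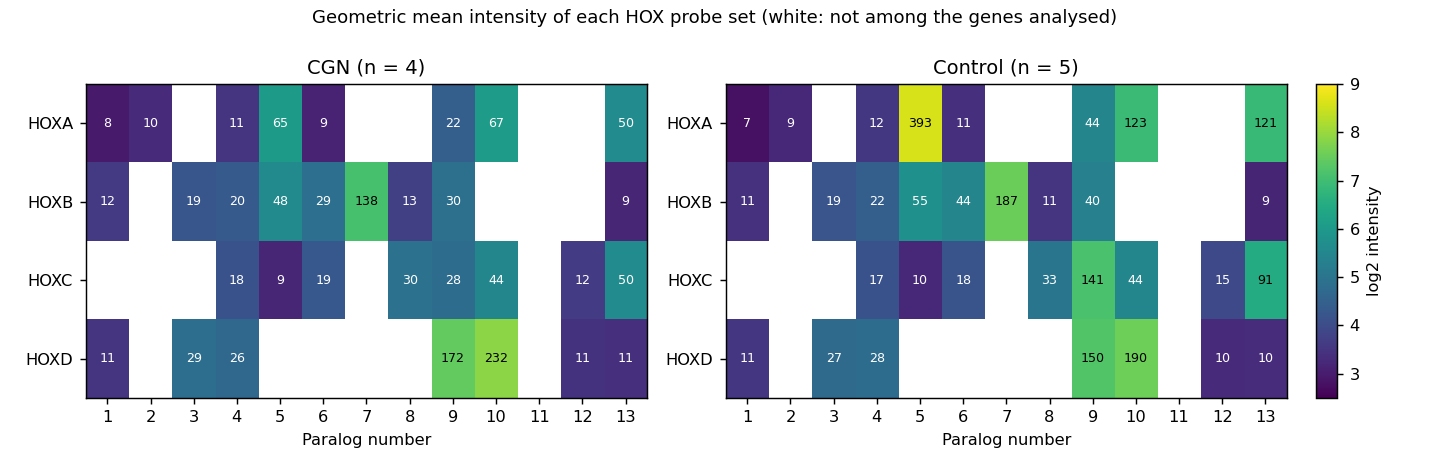
Geometric mean intensity of each HOX probe set in CGN skin (left grid, n = 4) and control skin (right grid, n = 5), with clusters and paralog numbers along the axes. Hoxb7, Hoxd9 and Hoxd10 are among the brightest cells of both grids, and Hoxa5 and Hoxc9 are dimmer in CGN, at 65.4 and 27.7, than in control, at 393 and 140.7.

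Against this pattern, 7 of the 32 HOX genes (21.9%) passed the threshold between CGN and control, beside 22.2% of all genes. The share of HOX genes that were called was thus near that of the array as a whole. All 7 fell in CGN, beside 13.5% of all genes that fell and 8.72% that rose. By limma none of the HOX genes rose, although Hoxd10 did so at an unadjusted p under 0.05 and, after quantile normalization or median centring, at an adjusted p of 0.0278 or 0.0342. The median log2 change was -0.05 over the HOX genes and -0.01 over all genes. At 2-fold or more, 4 HOX genes fell (Hoxa5, Hoxa9, Hoxa13 and Hoxc9), beside 2.76% of all genes.

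The falls lay in the HOXA (4 of 8), HOXC (2 of 8) and HOXB (1 of 9) clusters, and in HOXD 0 of 7 passed, with 1 at an unadjusted p under 0.05 by limma. By position, 5 of 13 posterior and 2 of 9 central genes fell, and 0 of 10 anterior genes passed, also at an unadjusted p under 0.05. Differences between clusters or positions were not tested. Most anterior genes had dim readings, on which a fall would be hard to see.

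In the HOXA cluster, Hoxa5 read 168, 31.5, 71.3 and 48.4 in CGN replicates 1 to 4, against 257, 361, 494, 391 and 521 in control replicates 1 to 5. All CGN values were under all control values, and CGN replicate 1 was nearest to the controls. The change was -2.59 ± 0.41 (95% interval -3.48 to -1.69, adjusted p = 0.00127).

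Hoxa13 read 69.3, 49.7, 44.2 and 41.3 in CGN, against 136.5, 113.8, 179.9, 88.4 and 104.4 in control. The groups did not overlap, and the change was -1.27 ± 0.21 (-1.74 to -0.81, adjusted p = 0.00172).

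Hoxa10, which acts in the lumbar spine and uterus in mouse, read 77.8, 72.0, 63.7 and 55.4 in CGN, against 142.9, 107.2, 150.9, 105.0 and 114.4 in control. These values did not overlap either, and CGN replicate 1 was again the highest of its group. The change was -0.88 ± 0.14 (-1.20 to -0.56, adjusted p = 0.00156).

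Hoxa9, a posterior paralog best known in blood cell formation and leukaemia, read 30.6, 23.0, 22.7 and 14.8 in CGN, against 32.2, 54.3, 45.1, 39.0 and 54.6 in control. The lowest control and the highest CGN sample were close together without overlap. The change was -1.002 ± 0.21 (-1.47 to -0.53, adjusted p = 0.00681). RefSeq lists the symbols Hoxa9 and Hoxa10 also as older names of Hoxa7 and Hoxa11, so these probe sets may measure a neighbouring paralog of the same cluster. RefSeq also lists Hoxa9l as an older name of Hoxa9. The Hoxa9l probe set, which the symbol rule did not take, read 48.2, 63.9, 52.1 and 52.1 in CGN, against 55.4, 66.9, 76.7, 56.4 and 57.5 in control. These groups overlapped and it did not pass (-0.21 ± 0.12, adjusted p = 0.294), so whether the gene that RefSeq now calls Hoxa9 fell is not settled here.

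Of the HOXA symbols whose probe sets fell, Hoxa9, Hoxa10 and Hoxa13 have an entry in the RefSeq promoter table (15 of the 32 HOX genes had one), on chromosome 4, minus strand, of the rat assembly GRCr8. These promoters are shown because probe sets deposited under the 3 symbols fell together. For Hoxa9 and Hoxa10 the promoter is that of the current RefSeq gene, which may not be the gene that the probe set measures. Each window runs 5′ to 3′ from 250 bases before to 50 bases after a start site, and Hoxa10 has 2 start sites. Capitals mark matches, on either strand, to the letters of the core promoter box TATAAA, of the upstream promoter element CCAAT, of the Sp1-type GC box GGGCGG or of the MEIS site TGACAG.
Hoxa9 chr4:82656999-82657298: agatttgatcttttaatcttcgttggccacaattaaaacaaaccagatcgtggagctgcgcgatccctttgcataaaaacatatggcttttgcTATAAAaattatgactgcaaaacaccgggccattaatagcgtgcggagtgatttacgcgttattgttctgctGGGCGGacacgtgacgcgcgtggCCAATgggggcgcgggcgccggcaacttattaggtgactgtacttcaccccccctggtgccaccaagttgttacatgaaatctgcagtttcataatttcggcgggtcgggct
Hoxa10 chr4:82665873-82666172: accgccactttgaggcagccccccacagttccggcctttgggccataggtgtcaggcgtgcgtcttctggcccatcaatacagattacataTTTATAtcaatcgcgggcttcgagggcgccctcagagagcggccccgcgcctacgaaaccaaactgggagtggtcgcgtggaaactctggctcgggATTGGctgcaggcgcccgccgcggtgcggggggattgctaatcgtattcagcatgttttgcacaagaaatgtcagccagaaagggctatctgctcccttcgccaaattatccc
Hoxa10 chr4:82671441-82671740: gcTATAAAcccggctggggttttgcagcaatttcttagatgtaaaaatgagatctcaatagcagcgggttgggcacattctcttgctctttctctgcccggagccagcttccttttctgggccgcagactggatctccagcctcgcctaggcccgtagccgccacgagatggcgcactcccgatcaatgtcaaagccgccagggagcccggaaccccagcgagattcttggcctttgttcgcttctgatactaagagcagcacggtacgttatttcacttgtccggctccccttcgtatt
Hoxa13 chr4:82691652-82691951: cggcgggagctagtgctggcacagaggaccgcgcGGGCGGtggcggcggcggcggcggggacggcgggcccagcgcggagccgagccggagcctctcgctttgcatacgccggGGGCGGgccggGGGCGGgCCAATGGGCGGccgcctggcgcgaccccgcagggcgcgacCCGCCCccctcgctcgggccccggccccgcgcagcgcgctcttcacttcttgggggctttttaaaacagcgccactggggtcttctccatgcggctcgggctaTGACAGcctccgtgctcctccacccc

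The Hoxa9 window and both Hoxa10 windows held 1 TATAAA each, found in 14.2% of 33469 promoters of this length, and the Hoxa13 window held none. None of these matches stood close before the start site, so they are matches of letters only. CCAAT, in 37.5% of promoters, stood once in each gene's windows, and in the Hoxa13 window it adjoins a GC box with no overlap. The Hoxa13 window held 5 copies of GGGCGG, against 1 in that of Hoxa9, and GGGCGG is in 33.1% of promoters. TGACAG, in 19.0% of promoters, stood once, in the Hoxa13 window. Guanine and cytosine made up 76.7% of the Hoxa13 window, 58.0% and 54.7% of the Hoxa10 windows and 49.0% of the Hoxa9 window. The letters TGATTNAT (HOX-PBX, 3.18% of promoters), TGACTCA (AP-1, 4.63%) and the NF-kB motif (1.11%) were searched on both strands and were not in these 4 windows.

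In the HOXC cluster, Hoxc9, a gene of thoracic identity in mouse, read 72.7, 17.7, 31.2 and 14.7 in CGN, against 117, 134.6, 200.4, 117.9 and 148.2 in control. CGN replicate 1 was again the nearest to the controls, and the groups did not overlap. The change was -2.34 ± 0.40 (-3.21 to -1.47, adjusted p = 0.00190). Its probe set is of a kind that can bind related transcripts. RefSeq lists Hoxc8 as an older name of Hoxc9, so the deposited symbols of these neighbours are less certain. The Hoxc8 probe set averaged 30.5 in CGN and 32.8 in control and did not pass (-0.11 ± 0.11, adjusted p = 0.552). Whether the gene that RefSeq now calls Hoxc9 fell is thus not settled here.

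Hoxc13, the hair and nail regulator, read 85.5, 28.1, 52.3 and 49.8 in CGN, against 96.5, 89.96, 78.3, 88.4 and 104.9 in control. CGN replicate 1 lay within the control range and the other 3 CGN samples below it. The change was -0.87 ± 0.25 (-1.42 to -0.31, adjusted p = 0.0299).

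In HOXB, Hoxb6, a trunk and limb-bud gene in mouse, read 37.8, 26.7, 26.5 and 28.2 in CGN, against 34.8, 35.2, 62.7, 46.3 and 46.8 in control. CGN replicate 1 exceeded 2 controls and the other 3 CGN samples lay below all of them. The change was -0.58 ± 0.18 (-0.98 to -0.18, adjusted p = 0.0409). The calls of Hoxb6 and Hoxc13 were the least firm. Hoxb6 lost its call on leaving out CGN replicate 2, 3 or 4 or control replicate 3, 4 or 5 (adjusted p from 0.0637 to 0.109). Hoxc13 lost its call on leaving out CGN replicate 2, 3 or 4 or control replicate 1, 2, 4 or 5 (adjusted p from 0.0504 to 0.0720). Hoxa5, Hoxa9, Hoxa10, Hoxa13 and Hoxc9 stayed past the threshold whichever single sample was left out.

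**Figure D2:**
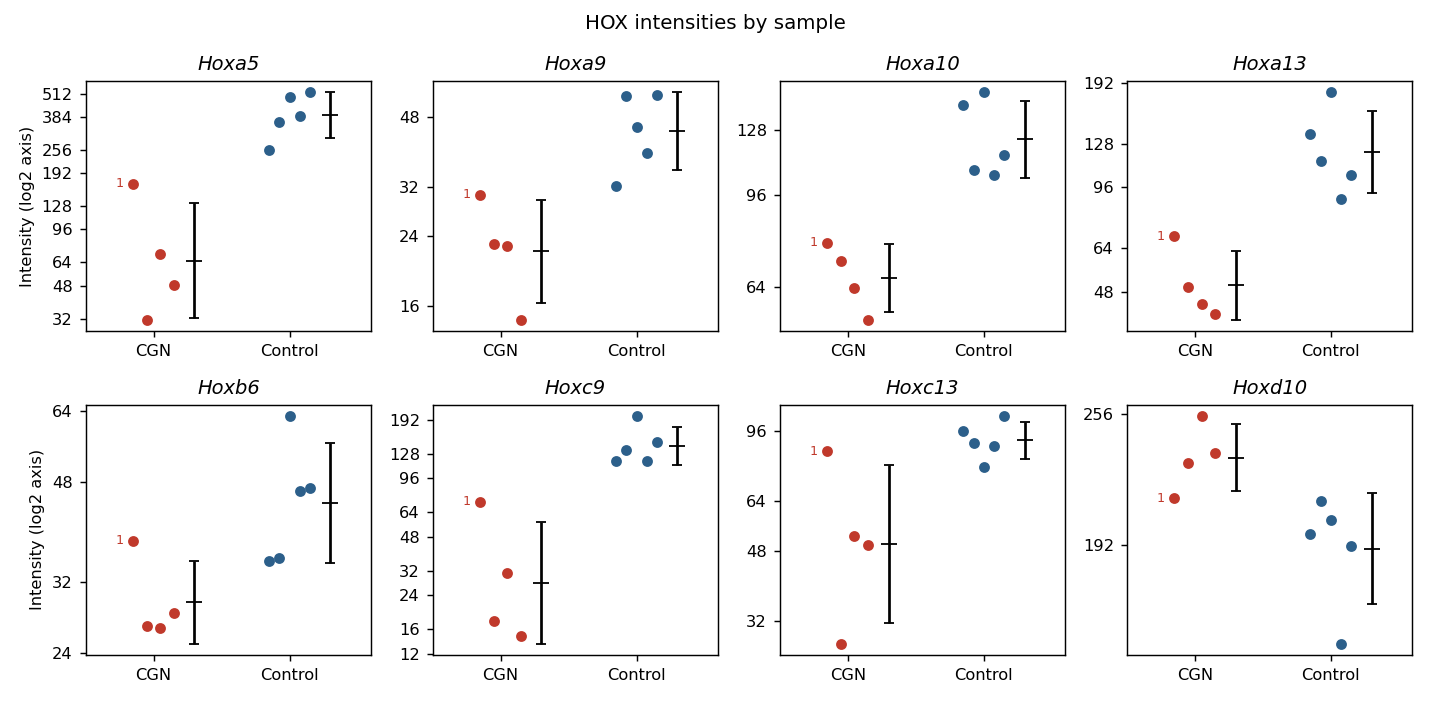
Intensity (log2 axis) of the 7 HOX genes that fell and of Hoxd10 in each CGN (red, left) and control (blue, right) sample, with the geometric mean ± SD of log2 as black bars and CGN replicate 1 marked 1. In Hoxa5, Hoxa9, Hoxa10, Hoxa13 and Hoxc9 all 4 CGN samples lie below the 5 controls, and in Hoxd10 all 4 lie above them.

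The other HOX genes that read above the dim guide differed little or did not pass. Hoxb9 read 33.7, 32.7, 22.8 and 31.7 in CGN, against 37.8, 45.1, 35.1, 46.5 and 36.4 in control. The groups did not overlap, and the change of -0.42 ± 0.14 missed the threshold at an adjusted p of 0.0523. Hoxb7 had means of 137.5 in CGN and 187.3 in control with overlapping samples (-0.45 ± 0.20, adjusted p = 0.142).

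The HOXD genes Hoxd9 and Hoxd10 pattern the limb in mouse and, by their brightest probe sets, were among the brightest HOX readings. Hoxd10 read 212.7, 229.7, 254.7 and 234.7 in CGN, against 196.8, 211.3, 202.6, 154.5 and 191.6 in control. Each CGN value was above each control value, by a small margin, with a change of 0.29 ± 0.11 (0.05 to 0.53, adjusted p = 0.0810). Hoxd9 had means of 172.2 in CGN and 150.3 in control, with overlapping samples (0.20 ± 0.20, adjusted p = 0.554). Over the HOX genes, groups did not overlap for 6 genes with lower CGN values and 1 with higher, beside 10.6% of all genes apart with lower values and 19.1% in either direction. The changes of the remaining HOX genes with a reading above the dim guide (Hoxb5, Hoxc8, Hoxc10, Hoxd3 and Hoxd4) lay between -0.17 and 0.11. The 16 genes with dim readings in control had changes from -0.30 (Hoxc12) to 0.25 (Hoxb8), and none passed. For 7 HOX genes there were 8 further probe sets, none of which passed, and the 7 genes that fell had a single probe set each. The further sets all read below the dim guide in control, at 7.41 for Hoxd9 and at 13.2 and 7.06 for Hoxd10.

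**Figure D3:**
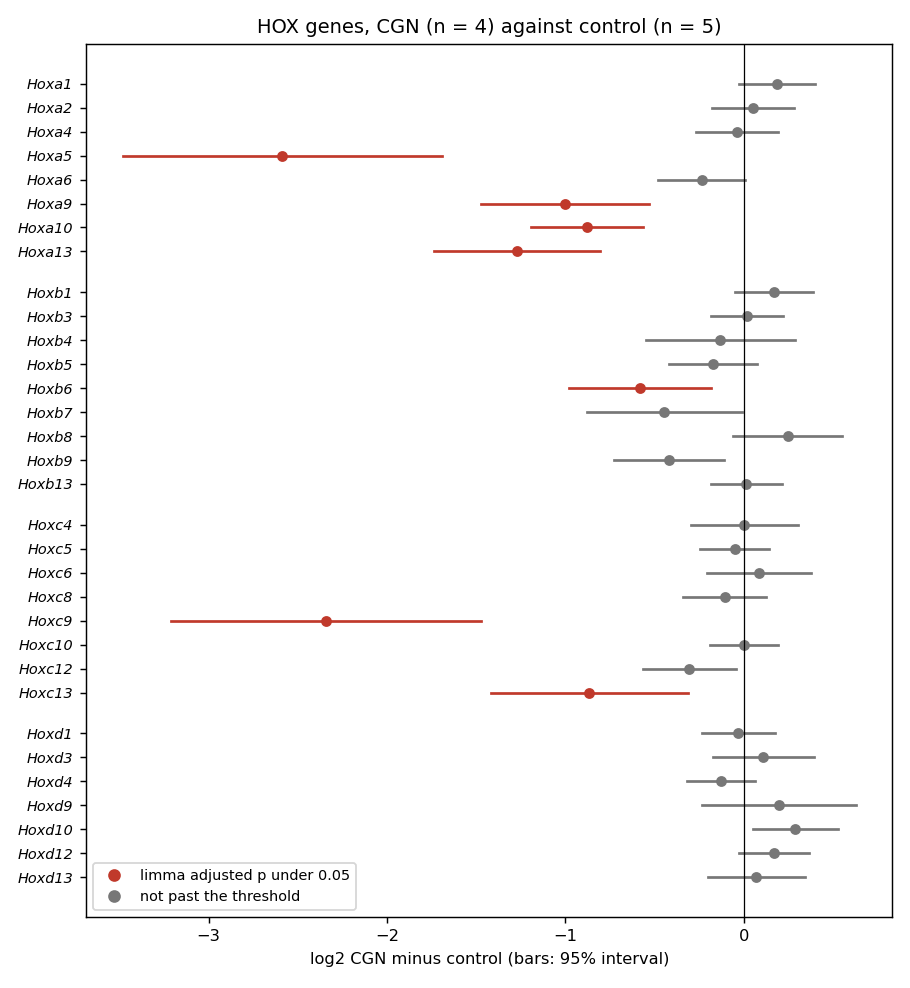
Log2 change, CGN minus control, with its 95% interval for each of the 32 HOX genes, in order of cluster and paralog number, with genes at an adjusted p under 0.05 in red. The 7 red intervals all lie below 0, from -0.58 for Hoxb6 to -2.59 for Hoxa5, and the HOXD genes lie between -0.13 and 0.29.

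CGN replicate 1 was the highest of the 4 CGN samples for 7 of the 7 HOX genes that fell. How often this was so among all genes that fell was not counted. As a share of the control mean, Hoxa5 stood at 42.9% in CGN replicate 1 and at 8.02%, 18.2% and 12.3% in CGN replicates 2 to 4. Hoxc9 stood at 51.7% in CGN replicate 1 and at 12.6%, 22.2% and 10.5% in the others. Without CGN replicate 1, 8 HOX genes were called, with Hoxb9 added.

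Both groups held much the same order of HOX levels, but less closely between groups than among controls. Pearson's correlation of log2 levels across the 32 HOX genes was 0.805 to 0.983 between a CGN and a control sample, 0.884 to 0.964 within CGN and 0.975 to 0.993 within control. Across these genes, which share arrays and probe affinities, it is a description. CGN replicate 1 correlated with the controls at 0.969 to 0.983, CGN replicate 2 at 0.805 to 0.843, CGN replicate 3 at 0.899 to 0.922 and CGN replicate 4 at 0.815 to 0.851. Without CGN replicate 1, the range was 0.962 to 0.964 within CGN and 0.805 to 0.922 between groups. By rank (Spearman) the values were 0.873 to 0.977 between groups, 0.923 to 0.972 within CGN and 0.959 to 0.992 within control. Over all genes, Pearson's correlation was 0.953 to 0.980 between groups. CGN replicate 1 was the nearest to the controls there too, at 0.9716 to 0.9799. CGN replicate 2 stood at 0.9526 to 0.9615, CGN replicate 3 at 0.9553 to 0.9604 and CGN replicate 4 at 0.9554 to 0.9592. Its nearness to the controls is thus not particular to the HOX genes.

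**Figure D4:**
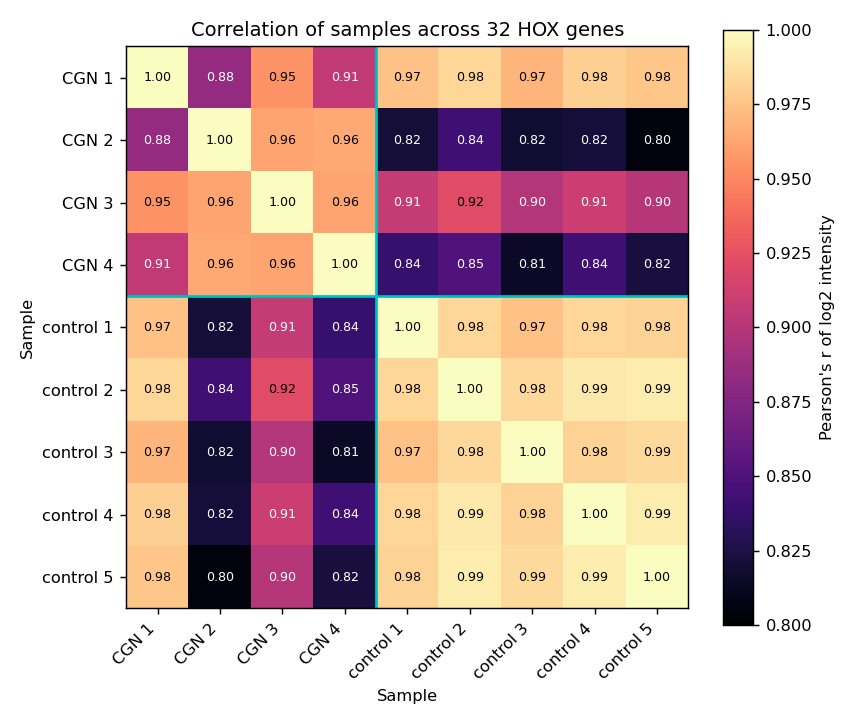
Pearson correlation of log2 intensity across the 32 HOX genes for each pair of the 9 samples, CGN samples first. CGN replicate 1 stands at 0.969 or more with every control, and CGN replicates 2 and 4 at 0.851 or less.

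Muscle and leukocyte markers differed most often between the same groups, beside 22.2% of all genes called. The skeletal muscle list (24 genes measured, 19 or 79.2% lower in CGN, none higher) had a mean log2 intensity of 7.37, 5.28, 5.41 and 7.31 in CGN replicates 1 to 4, against 10.52, 9.38, 10.13, 7.98 and 8.17 in control. All CGN samples lay below all controls in it. With the muscle value as a covariate in limma, the 7 genes kept a negative sign but 0 of the 32 HOX genes passed, 4 at an unadjusted p under 0.05, with adjusted p from 0.130 (Hoxa9) to 0.682 (Hoxc13) for these 7. In that fit the change was -0.67 ± 0.30 for Hoxa13 and -0.44 ± 0.42 for Hoxc13, against -1.27 and -0.87 without the covariate. It was -2.26 ± 0.72 for Hoxa5, -1.90 ± 0.69 for Hoxc9, -1.25 ± 0.38 for Hoxa9, -0.62 ± 0.24 for Hoxa10 and -0.46 ± 0.32 for Hoxb6. The covariate is itself tied to the group, with a correlation of -0.818, which widens these errors. Among the basal and suprabasal keratins, Krt15, a keratin of basal cells and the hair follicle bulge, read 5538, 88.0, 61.9 and 70.6 in CGN, against 566, 367, 3458, 2013 and 2199 in control. It was chosen for display after its values were seen. CGN replicates 2 to 4 lay far below all other samples in it, and it did not pass (adjusted p = 0.185). The leukocyte list rose in 8 of 10 genes (80.0%), with a mean log2 of 8.92 to 9.50 in CGN and 7.43 to 7.63 in control. In the other lists, the shares called in either direction were near or under that of all genes. Falls alone took in 25% of keratinocyte markers and 25% of Schwann cell and nerve markers, beside 13.5% of all genes. All 12 keratinocyte markers had a negative change. Their mean log2 was 11.96, 11.31, 11.21 and 11.17 in CGN replicates 1 to 4, against 11.77 to 12.07 in control. Fibroblast markers rose in 2 of 14 genes (14.3%), and 3 of 12 keratinocyte markers, 2 of 8 Schwann cell and nerve markers and 1 of 8 endothelial markers fell, with 1 other endothelial marker higher (25% called in each of these 3 lists). In limma 0 of 8 adipocyte, 0 of 6 melanocyte and 0 of 3 hairless volar markers passed, with 1, 0 and 1 of them at an unadjusted p under 0.05. The part of these cell types in the HOX values was not tested, and in whole skin fewer cells of a type and less RNA per cell cannot be told apart.

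**Figure D5:**
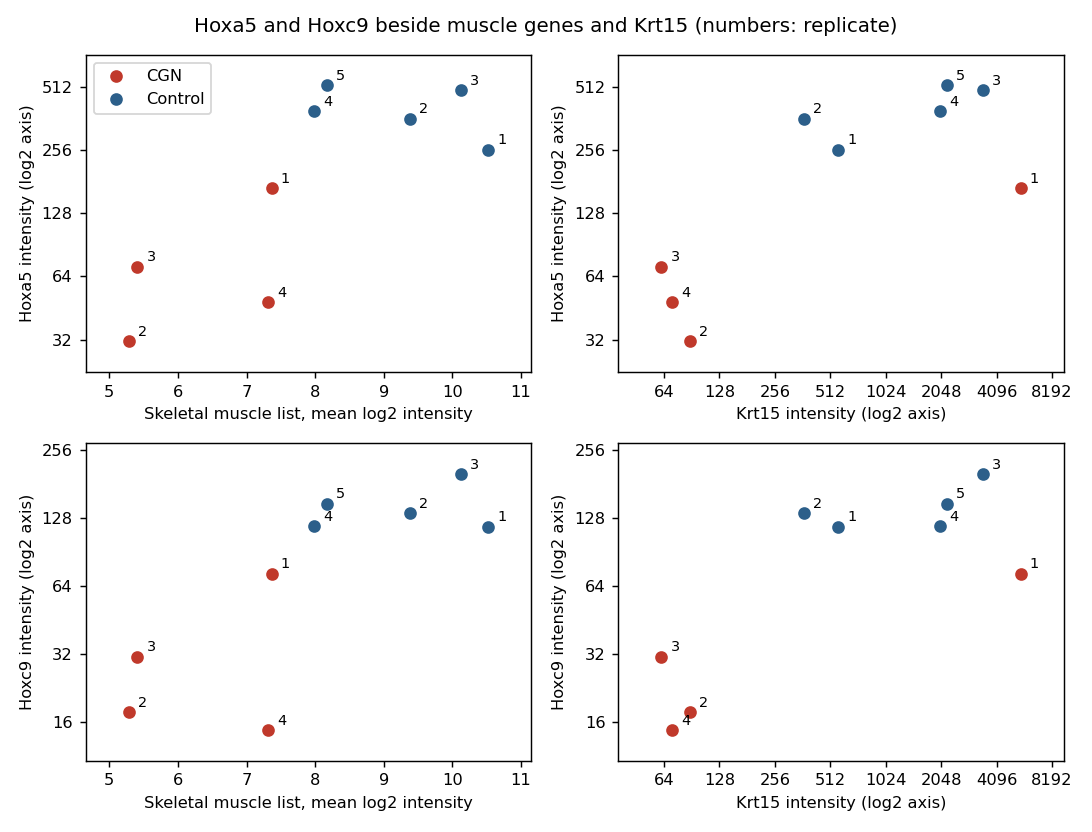
Intensity of Hoxa5 (top) and Hoxc9 (bottom), on log2 axes, against the mean log2 of the skeletal muscle list (left) and the intensity of Krt15 (right, log2 axis) in each CGN (red) and control (blue) sample, with replicate numbers. All CGN samples lie below all controls in the muscle value, Hoxa5 and Hoxc9, and CGN replicates 2 to 4 have Krt15 under 100 while CGN replicate 1 has 5538.

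Of the 10 HOX cofactor genes measured, 1 passed the threshold (Meis1, lower in CGN), beside 22.2% of all genes called. By limma 5 of them were at an unadjusted p under 0.05, and 9 had a negative change. Meis1, a homeodomain partner of HOX and PBX proteins, read 73.2, 23.2, 33.6 and 20.4 in CGN, against 116.4, 118.7, 137.8, 119.9 and 144.6 in control. As for Hoxc9, CGN replicate 1 was the highest of its group and below the controls. The change was -1.95 ± 0.31 (adjusted p = 0.00128). Meis2, a close relative of Meis1, did not pass (-0.31 ± 0.15, adjusted p = 0.194).

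Other regulators that mark limb, trunk or head fell in 6 of 36 genes (16.7%, beside 13.5% of all genes that fell) and rose in none. Pitx1, which sets hindlimb identity in mouse, read 21.9, 19.4, 19.0 and 23.1 in CGN, against 31.8, 27.0, 40.5, 32.5 and 26.9 in control. The groups did not overlap, and it fell by 0.59 on the log2 scale (adjusted p = 0.00813). Pitx1 read below the dim guide of 24.4 in every CGN sample. Its control mean, 31.4, lay below the second highest other-tissue gene, 45.7. Its hindlimb partner Tbx4 read 10.05 in CGN and 10.02 in control, and the forelimb gene Tbx5 read 22.3 in CGN and 23.5 in control, both below the dim guide. The dorsal limb gene Lmx1b (0.11, adjusted p = 0.544) and the limb mesenchyme gene Prrx1 (0.07, adjusted p = 0.866) did not pass. Irx5 fell by 1.12 (adjusted p = 9.6e-05), Dlx5 fell by 1.55 (adjusted p = 0.000435) and Dlx3, which acts in hair and epidermis, fell by 1.41 (adjusted p = 0.00124), all on the log2 scale. En1 was not analysed here.

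Of the 27 Polycomb and trithorax genes measured, 3 rose and 8 fell (40.7% called, beside 22.2% of all genes). Kdm6b, a demethylase that removes the Polycomb mark on histone H3, read 1026, 1385, 1414 and 1630 in CGN, against 268, 275, 339, 199 and 226 in control. All CGN values were above all controls and it rose by 2.39 on the log2 scale (adjusted p = 4.62e-06). The Polycomb reader genes Cbx8 (-0.88 ± 0.09) and Cbx6 (-0.93 ± 0.13) and Men1, of trithorax-type complexes (-0.74 ± 0.11), fell, and the methyltransferase gene Ezh2 (-0.32 ± 0.18, adjusted p = 0.272) did not pass. Its paralog Ezh1, named after its values were seen, had the largest fall of the list (-1.13 ± 0.20, adjusted p = 0.00264), with no overlap between groups. Kmt2a was not analysed here. Of 22 genes of retinoic acid and other inputs to HOX genes, 3 were higher and 4 lower (31.8% called). Cyp26b1, which breaks down retinoic acid, averaged 5652 in CGN and 2521 in control (log2 change 1.17 ± 0.13, adjusted p = 0.000107). Dhrs3, which turns retinal back into retinol, averaged 177.7 in CGN and 470.6 in control, and Rdh10, which makes retinal, rose by 1.07 on the log2 scale. Among the receptor genes, Rara rose by 0.44 (adjusted p = 0.0334) and Rxrb fell by 0.43 (adjusted p = 0.0142), both on the log2 scale, and Rarb (-0.15) and Rarg (0.01), with dim readings, did not pass. Rara and Rxrb were named after their values were seen. Of 24 hair and nail genes linked to Hoxc13, 0 passed in limma and 2 did so at an unadjusted p under 0.05, with Foxn1 at 15.4 in CGN and 17.4 in control. Single samples stood out in this list, with a mean log2 of 5.49, 4.62, 4.63 and 4.54 in CGN replicates 1 to 4, against 4.70, 4.55, 4.54, 5.44 and 4.82 in control. Krt25, a hair follicle keratin named after its values were seen, read 340 in CGN replicate 1 and 8.77 to 12.3 in the other CGN samples, against 334 in control replicate 4 and 7.62 to 48.9 in the other controls. CGN replicate 1 is also the sample with the highest values of the 7 HOX genes that fell, and the part of hair follicle content in those values was not tested. Over all 5 lists, 21.0% of 119 genes were called, close to the 22.2% of all genes. Single lists ranged from 0% to 40.7% called, and their differences from all genes were not tested.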

How the data were processed

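The authors deposited RMA intensities on a linear scale, per the submitters' processing notes, which give no version. Both deposited tables held identical values for 43685 probe sets in 9 samples. The column of the CGN sample labelled replicate 4 carries the number 5, which no CGN label has, and was matched through identical values. Probe-level signals, detection calls, scan batches and a genome build were not given in the sources used here. Of the probe sets, 27508 had a single gene name, from the deposited symbol or through RefSeq (GRCr8), and 16177 had none and were left out. Where a gene had several probe sets (5848 genes), the one with the highest mean log2 stood for it. Groups were compared on log2 intensity with limma 3.58.1 in R 4.3.3 with a model that held the group alone (2-sided eBayes moderated test, no filter, no pseudocount), which was tested on simulated data. Correlations and sequence searches used Python 3.11.15. The HOX members and all lists were chosen with earlier results of these data known. Named one by one were HOX genes past the threshold, those in the top quartile in control, Hoxc13 and those needed to state each cluster's control pattern, and, from each list, up to 4 genes with the smallest adjusted p and some fixed names; some genes that this rule takes are not reported here. The number of arrays limits the precision. Alternatives were a fit without the dimmest 30% of genes, median centring, quantile normalization, other uses of probe sets, other limma options, a replicate block, a muscle covariate and leaving out each sample.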

Additional observations from a re-analysis of the deposited data

Results flagged for a closer look

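In 2 of the 64 groups of HOX values tested, a single sample stood apart from the rest of its group by Dixon's criterion, and chance gives about 1 in 20. Hoxb5 read 52.63 in CGN replicate 4, against 46.74, 47.16 and 46.93 in the other CGN samples. Hoxb9 read 22.76 in CGN replicate 3, against 33.69, 32.65 and 31.66 in the other CGN samples.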

How the results depend on the processing

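The 7 HOX calls kept their direction in all alternatives and 108 of 133 single-gene values stayed past the threshold; the other 25 did not, mostly for Hoxb6 and Hoxc13. Over quantile normalization, median centring, probe set choices, limma options and array weights, 5 to 9 HOX genes were called, and 5 to 8 when each sample was left out. With the muscle covariate, 0 HOX genes (4 at an unadjusted p under 0.05 by limma), 5 of the related genes against 25, and 529 of all genes against 4244 were called. The cause was not tested, and the covariate is correlated with the group. No pairing by the replicate numbers of the labels was seen, as deviations of same-numbered samples correlated at -0.28, 0.04, 0.01 and -0.12. Differently numbered samples ranged from -0.29 to 0.35, so these few values cannot exclude a pairing. By its column number, CGN replicate 4 would go with control replicate 5, and there the correlation was -0.29. With the label numbers as a replicate block over samples 1 to 4, 2604 of all genes and 5 HOX genes were called. Leaving out single samples gave 3109 to 4907 calls over all genes and 19 to 33 over the related genes. Readings near those of genes restricted to other tissues limit what can be seen in the dim HOX genes.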

Other observations

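Of the 4 nearest measured genes beside the HOXA cluster, 2 rose and 1 fell, beside 8.72% of all genes that rose and 13.5% that fell. With 4 genes a cluster, nothing is read from these counts. Snx10, a sorting nexin gene, averaged 119.2 in CGN and 47.97 in control and rose by 1.31 on the log2 scale (limma, adjusted p = 0.00166), and Skap2, a Src kinase adaptor gene, rose by 0.90 (adjusted p = 0.00534). Hibadh, an enzyme gene of valine breakdown, fell by 0.39 on the log2 scale (adjusted p = 0.0224), and Evx1, a homeobox gene, read 11.9 in CGN and 10.6 in control and did not pass (adjusted p = 0.243). Next to HOXB, Snx11 fell by 0.46 on the log2 scale (adjusted p = 0.0175), and Atp5mc1, Calcoco2 and Skap1 did not pass. Of the nearest genes of HOXC and HOXD, 0 of 8 passed in limma, with the lowest adjusted p at 0.0608 and 2 (Atp5mc2 and Calcoco1) at an unadjusted p under 0.05. These neighbours were chosen by position in the RefSeq table.

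The microRNA genes of the HOX clusters gave dim readings in both groups. They were looked up after other values had been seen. Their mature sequences (RefSeq, seed bases 2 to 8 in capitals) are shown because miR-196a and miR-196b share a seed.
rno-miR-10a-5p: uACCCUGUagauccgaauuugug
rno-miR-10b-5p: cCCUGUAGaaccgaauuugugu
rno-miR-196a-5p: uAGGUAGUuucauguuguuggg
rno-miR-196b-5p: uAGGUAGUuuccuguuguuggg
The listed miR-10b begins further along a stretch that it shares with miR-10a, so the capitals of this pair mark shifted bases. The probe sets carry the hairpin gene names. Mir196b averaged 10.9 in CGN and 11.1 in control, and Mir10a averaged 6.14 in CGN and 5.71 in control. In limma 0 of the 4 passed (adjusted p from 0.562 to 0.943), also at an unadjusted p under 0.05.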
